A study of Sus scrofa with 12 samples.

Results

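The 12 muscle libraries of a pig drip loss study were ranked by PLIN1, the gene for perilipin 1, and the 6 libraries with the highest level were set against the 6 with the lowest. The groups were thus chosen by a measured value, the PLIN1 count scaled to 1000000 counts over all features (CPM), and PLIN1 itself was left out of every test. Perilipin 1 coats the large lipid droplet of fat cells, where it shields stored triglyceride from lipases until a hormonal signal releases it. Muscle fibres hold only small droplets, coated mainly by other perilipins, so most PLIN1 in a piece of muscle is usually read as coming from the fat cells that lie between its fibres. These cells make fatty acids from acetyl units (FASN, ACACA, SCD), join them into triglyceride, enlarge the droplet (CIDEC) and depend on the transcription factor PPARG. In bulk tissue such as this, fewer cells of a type and less RNA per cell cannot be told apart.

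The animals were 12 pigs, 6 labelled high drip and 6 low drip, and each of these sets held 3 females and 3 males. Meat with high drip loss lets go of more water in storage, that is, it has a low water holding capacity. Muscle was frozen after dissection, with RNA integrity numbers required to be above 8, and no breed, muscle or treatment is given in the labels. The high PLIN1 libraries came from 4 males and 2 females aged 167 to 181 days, and the low PLIN1 libraries from 2 males and 4 females aged 172 to 189 days. Each group held 3 high drip and 3 low drip animals (Fisher's exact test, two-sided, p = 1). The split of the sexes gave p = 0.567 in the same exact test. Within the groups the PLIN1 level was less even over drip. In the low PLIN1 group, high drip animals had 3.53, 3.37 and 2.94 CPM and low drip animals 5.995, 5.38 and 5.29 CPM. In the high PLIN1 group, high drip animals had 11.4, 10.9 and 7.52 CPM and low drip animals 16.1, 11.8 and 11.2 CPM. The mean age was 174 ± 5.14 days in the high PLIN1 animals and 180 ± 6.81 days in the low PLIN1 animals (SD, n = 6 each), and an exact two-sided permutation test gave p = 0.147, or 0.245 after adjustment over 5 measures.

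PLIN1 was read at 16.1, 11.8, 11.4, 11.2, 10.9 and 7.52 CPM in the high PLIN1 libraries, against 5.995, 5.38, 5.29, 3.53, 3.37 and 2.94 CPM in the low PLIN1 libraries. These levels rest on 86 to 183 counts in the high PLIN1 libraries and 27 to 58 counts in the low PLIN1 libraries. The group means of 11.5 ± 2.75 and 4.42 ± 1.28 CPM (SD, n = 6 each) are what the ranking fixed, and no test was made of them. The library just inside the boundary, high drip replicate 4, had 7.52 CPM with a 95% exact Poisson interval of 6.02 to 9.29, and the library just outside it, low drip replicate 3, had 5.995 CPM with an interval of 4.52 to 7.80. Those intervals overlapped, so the 2 middle libraries could not be ordered at this depth.

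**Figure D1:**
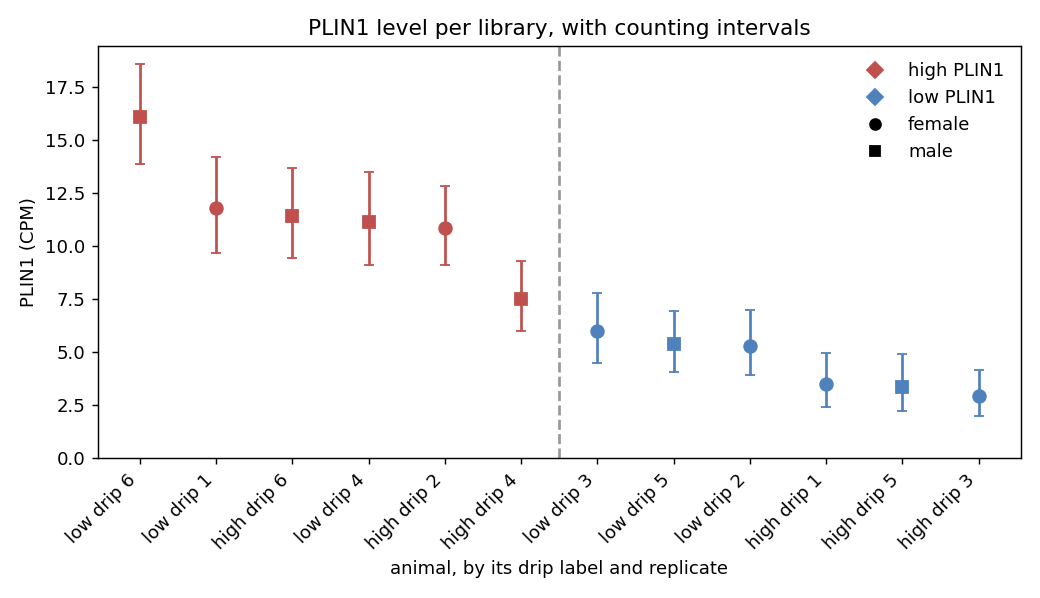
PLIN1 level in CPM (y axis) in each of the 12 libraries, ordered from highest to lowest and named by drip label and replicate (x axis). Whiskers are 95% exact Poisson intervals, which cover counting error only, circles are females, squares are males, and the dashed line is the boundary between 7.52 CPM in the last high PLIN1 library and 5.995 CPM in the first low PLIN1 library.

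Library totals were 9230525 to 12622043 counts in the high PLIN1 libraries and 8009627 to 10771225 in the low PLIN1 libraries (exact permutation test, two-sided, p = 0.121, or 0.245 after adjustment). Of the 12 whole-genome tables, 3 were recorded for an animal other than the one whose number they carry, and all 12 had more counts in common with the region table of their own number, so the number was used. By the recorded animals, 2 high PLIN1 and 4 low PLIN1 libraries would be high drip (Fisher's exact test, two-sided, p = 0.567), and sex stays the same. Albumin (ALB), a liver transcript, exceeded 10 CPM in 3 high PLIN1 and 3 low PLIN1 libraries, called the libraries with liver transcripts below. The other 3 high PLIN1 and 3 low PLIN1 libraries are called those without, though ALB was still read in them, at 0.327 to 2.49 CPM. ALB reached 317 CPM in high drip replicate 2, a high PLIN1 library, and at most 55.6 CPM in any low PLIN1 library.

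The libraries with high PLIN1 had higher mean levels of CIDEC, FASN, PPARG and LIPE, and lower ones of PLIN4, ME1 and INSIG1. Of 41 tested genes in 5 lists of fat genes, 31 had a log2 fold above 0 and 10 below it. No gene passed the test of the grouped comparison. Of 10092 features tested, 0 (0%) had an adjusted p under 0.05 in edgeR's quasi-likelihood test with sex as a term, and DESeq2 and limma-voom also called 0. In edgeR, 347 features (3.44%) had an unadjusted p under 0.05, 169 of them (1.67%) higher and 178 (1.76%) lower in the high PLIN1 libraries. If no feature differed, 504.6 would be expected under 0.05, so small p-values were fewer than that. All 10092 adjusted p-values were 1, so the folds below are descriptions with their standard errors. Counts were also simulated for the same 2 groups, with 67 genes changed by 1.5-fold, 66 by 2-fold and 62 by 4-fold at once. Of these, 31.3%, 77.3% and 100% were called. The simulated means held no other difference between libraries, and the called share depends on how many genes change. These shares are therefore not the share of real changes that would be found here.

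When PLIN1 was entered as a number instead of as 2 groups, 2 genes passed, CIDEC and FASN. Both are in the lists of fat genes and were set beforehand, with PLIN1, as fat cell markers. CIDEC, whose protein makes lipid droplets fuse and grow, rose by 0.86 ± 0.12 on the log2 scale for each doubling of PLIN1 (edgeR adjusted p = 0.0217). FASN, the enzyme that builds palmitate, rose by 0.77 ± 0.11 (edgeR adjusted p = 0.0217). One further feature, ENSSSCG00000023044, which the table of names used here does not name and which was picked after its values were seen, had a slope of 0.83 ± 0.13 (edgeR adjusted p = 0.0646). With limma-voom, 0 features passed in the numeric fit, the adjusted p being 0.058 for CIDEC and 0.0506 for FASN. When 1 library was left out of that edgeR fit, 0 to 3 features passed, and 0 passed without high drip replicate 3, 5 or 6 or low drip replicate 4, 5 or 6. CIDEC passed alone without high drip replicate 1, and ENSSSCG00000023044 alone without low drip replicate 1. In the fits that left out 1 library, the slope lay between 0.77 and 0.95 for CIDEC and between 0.69 and 0.85 for FASN. With drip as a further term FASN passed with a slope of 0.67 and CIDEC did not pass (edgeR adjusted p = 0.167).

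**Figure D2:**
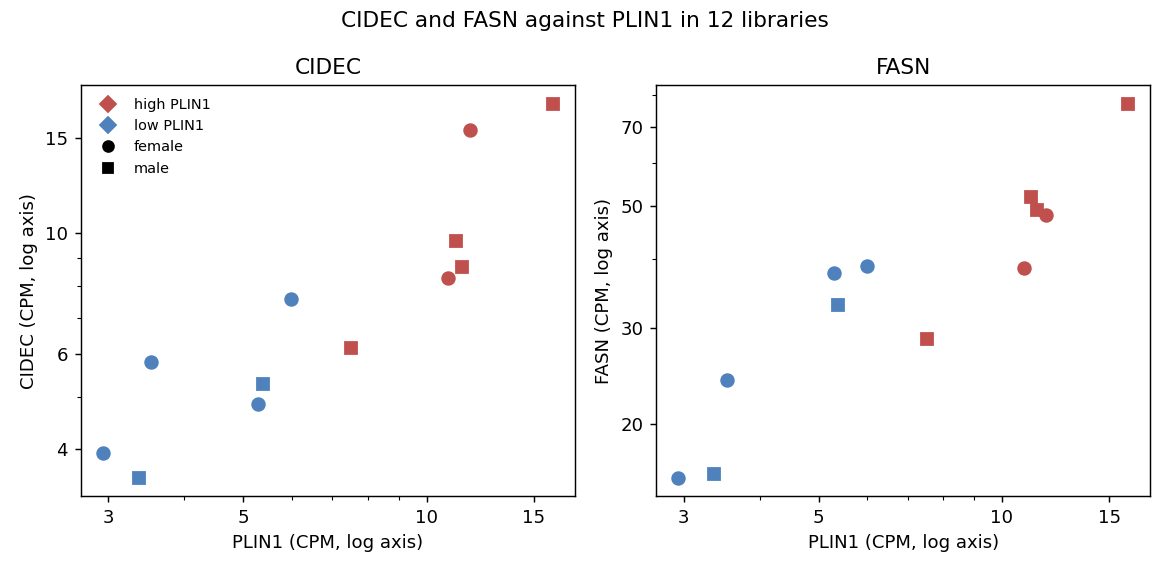
CIDEC (left panel) and FASN (right panel) in CPM against PLIN1 in CPM, one point per library, with log scales on all axes. Both genes were highest in the library with the highest PLIN1, at 17.4 CPM for CIDEC and 77.1 CPM for FASN, while the high PLIN1 library nearest the boundary (6.15 and 28.6 CPM) lay below the low PLIN1 library next to it (7.58 and 38.8 CPM).

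Among lipid droplet genes, CIDEC had the largest fold. It was read at 6.15, 9.16 and 17.4 CPM (lowest, median and highest) in the high PLIN1 libraries and at 3.55, 5.06 and 7.58 CPM in the low PLIN1 libraries. All high PLIN1 libraries but high drip replicate 4 lay above every low PLIN1 library. Its log2 fold was 1.16 ± 0.28 (edgeR unadjusted p = 0.00085, adjusted p = 1), with 1.1 in females and 1.23 in males. PLIN5, which ties droplets to mitochondria in oxidative tissue and was picked after its values were seen, averaged 6.75 ± 2.12 CPM in the high PLIN1 libraries and 3.93 ± 1.21 CPM in the low PLIN1 libraries (log2 fold 0.69 ± 0.26, edgeR unadjusted p = 0.0176, and 0.34 without high drip replicate 2). Its 4 highest libraries were all high PLIN1, and 2 high PLIN1 libraries lay within the range of the others. PLIN4, another droplet coat protein, pointed the other way, with 132 ± 28.3 CPM in the high PLIN1 libraries and 148 ± 52.4 CPM in the low PLIN1 libraries (log2 fold -0.32 ± 0.22). CAV1, the caveolar coat protein abundant in fat cells and endothelium, had a log2 fold of 0.16 ± 0.13, and FITM1, which helps droplets form in muscle, one of 0.25 ± 0.14. In the whole list, 8 of 15 genes were tested, 5 were higher and 3 lower, 0 passed, and the median log2 fold was 0.12 against 0.00 over all tested features.

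The enzymes of fatty acid synthesis were mostly higher in the high PLIN1 libraries, though none passed. All 12 members with an ID were tested, 10 with a log2 fold above 0 and 2 below it, against 50.4% of all tested features above 0, and the median was 0.17. FASN was read at 28.6, 48.7 and 77.1 CPM (lowest, median and highest) in the high PLIN1 libraries and at 15.9, 28.5 and 38.8 CPM in the low PLIN1 libraries. Of the high PLIN1 libraries, 4 lay above every low PLIN1 library. Its log2 fold was 0.82 ± 0.29 (edgeR unadjusted p = 0.0129), with 0.58 in females and 1.06 in males. ACACA, which makes the malonyl units that FASN uses and was picked after its values were seen, averaged 17.5 ± 4.74 CPM in the high PLIN1 libraries and 12.6 ± 2.28 CPM in the low PLIN1 libraries (log2 fold 0.46 ± 0.19, edgeR unadjusted p = 0.0334). SCD, which puts a double bond into the new fatty acid, varied widely, with 472 and 373 CPM in 2 high PLIN1 libraries and 89.6 to 165 CPM in the other 4, against 44.1 to 171 CPM in the low PLIN1 libraries (log2 fold 0.78 ± 0.45, edgeR unadjusted p = 0.107). The high values came from the males low drip replicate 6 and high drip replicate 6, and the remaining libraries overlapped. The 2 genes below 0 were ME1, which supplies NADPH, with a log2 fold of -0.24 ± 0.16, and INSIG1, which holds back the sterol-sensing pathway, with 13.8 ± 2.32 CPM in the high PLIN1 libraries and 20.6 ± 8.94 CPM in the low PLIN1 libraries (log2 fold -0.46 ± 0.26, and -0.22 without high drip replicate 2).

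The only gene of the fat lists whose groups did not overlap was PPARG, the master regulator of fat cell formation. It was read at 3.15, 3.70 and 6.29 CPM (lowest, median and highest) in the high PLIN1 libraries and at 1.53, 1.99 and 3.11 CPM in the low PLIN1 libraries, from 31 to 58 and 13 to 33 counts. The nearest libraries of the groups, at 3.15 and 3.11 CPM, were all but level. Its log2 fold was 1.00 ± 0.26 (edgeR unadjusted p = 0.00152), with 1.32 in females and 0.66 in males. Of all tested features, 17 (0.168%) had groups that did not overlap, 7 (0.0694%) higher and 10 (0.0991%) lower in the high PLIN1 libraries. Among this many features some separate in this way by chance, and the share was not tested against that.

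The other regulators and hormones of fat cells followed with smaller or less even differences. SLC2A4, the insulin-regulated glucose carrier of muscle and fat, averaged 8.94 ± 1.65 CPM in the high PLIN1 libraries and 6.52 ± 1.5 CPM in the low PLIN1 libraries (log2 fold 0.41 ± 0.19, edgeR unadjusted p = 0.0492). Its fold was 0.07 in females and 0.76 in males. CFD, the fat cell product adipsin, averaged 45.3 ± 15.3 CPM and 39.0 ± 7.10 CPM in the high and low PLIN1 libraries (log2 fold 0.24 ± 0.21). RBP4, a retinol carrier made by liver and fat, had a log2 fold of 1.12 ± 0.52 that was 0.12 without high drip replicate 2, where it reached 9.21 CPM. The list had 6 tested members, all with a log2 fold above 0, and a median of 0.33, which was 0.12 without that library.

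Fat cell markers that were too low for the test are given as raw counts, not scaled to library totals. Summed over each group's 6 libraries, ADIG had 51 counts in the high PLIN1 libraries and 15 in the low PLIN1 libraries. LGALS12, a lectin of fat cell droplets, had 58 and 25 counts, and TRARG1, a partner of the glucose carrier, 47 and 17 counts, in the high and low PLIN1 libraries. CEBPA, a transcription factor that acts with PPARG, had 49 and 31 counts in the same order. Counts per library overlapped for all of these. They were 2 to 17 and 1 to 4 for ADIG, and 6 to 18 and 1 to 7 for LGALS12. TRARG1 had 1 to 12 and 1 to 4, and CEBPA 5 to 14 and 3 to 9. No gene ID here carried the symbol ADIPOQ, LEP, FABP4, DGAT2, LPL or CD36, so the best known hormones and lipid carriers of fat cells could not be checked. RETN was read once in the high PLIN1 libraries and 0 times in the low PLIN1 libraries.

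Among the lipases, the folds depended on which libraries were compared. LIPE, the hormone-sensitive lipase, averaged 24.8 ± 6.98 CPM in the high PLIN1 libraries and 16.5 ± 3.71 CPM in the low PLIN1 libraries (log2 fold 0.61 ± 0.21, edgeR unadjusted p = 0.0122). It was 14.5 CPM in high drip replicate 4, inside the low PLIN1 range of 11.2 to 21.5 CPM, and 4 high PLIN1 libraries lay above that range. PNPLA2, which takes the first fatty acid off triglyceride, had a log2 fold of 0.40 ± 0.27, and MGLL, which takes the last one off, 0.31 ± 0.20. In the libraries without liver transcripts these were -0.14 for PNPLA2, -0.13 for MGLL and 0.26 for LIPE, and in those with them 0.92, 0.73 and 0.98. Of 5 tested lipolysis genes, 4 were higher, 0 passed, and the median was 0.40. It was 0.73 in the libraries with liver transcripts, 0.10 in those without, and 0.41 over all 12 libraries with a liver term. The part of liver transcripts in the result was not tested. Triglyceride synthesis and fatty acid uptake had 6 of 10 tested members higher, 4 lower, 0 passed, and a median of 0.02. LPIN1, which makes diacylglycerol, had a log2 fold of 0.22 ± 0.22.

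**Figure D3:**
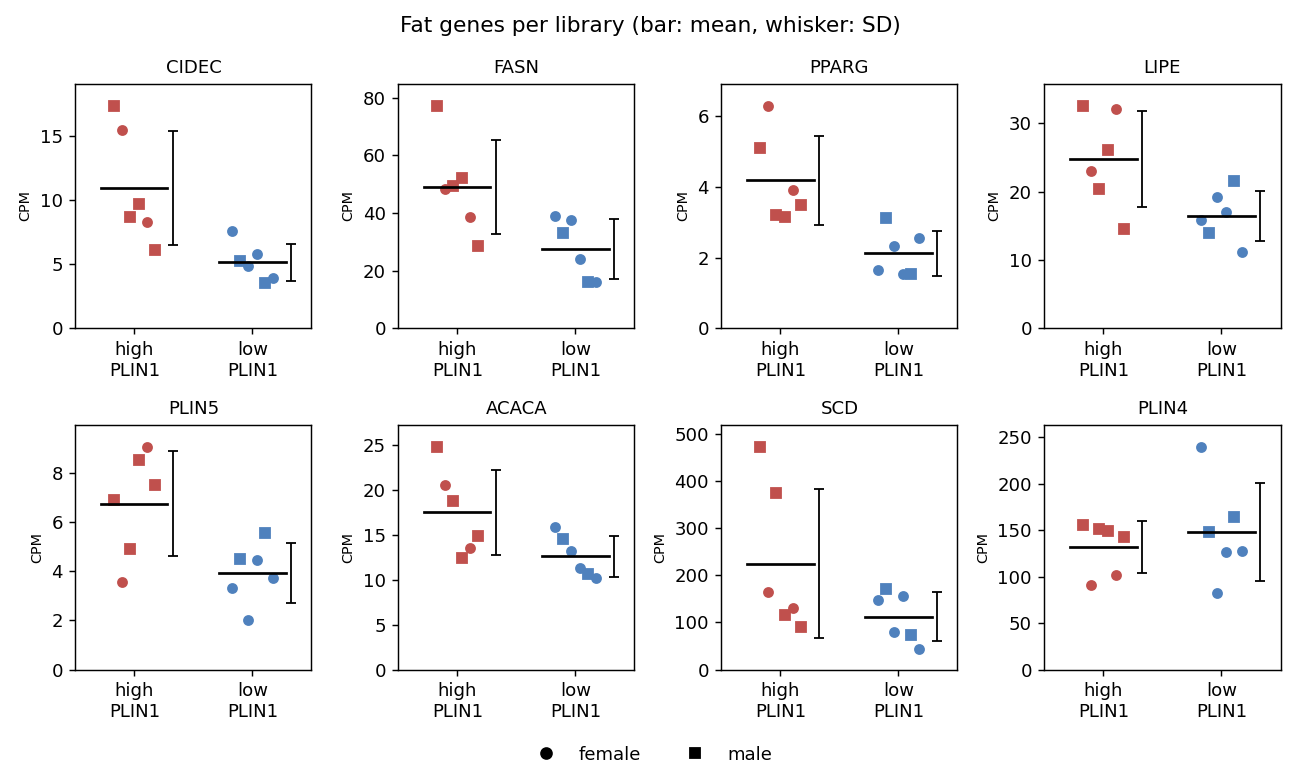
Level in CPM (y axis, one scale per gene) of 8 fat genes in the high PLIN1 (left, red) and low PLIN1 (right, blue) libraries, with circles for females and squares for males. Horizontal bars are means and whiskers are SD (n = 6 each), and PPARG was the one gene of the 8 whose groups did not overlap.

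Over the 5 fat lists together, 82 genes were listed, 50 had an ID and 41 were tested. Of the 41, 31 (75.6%) were higher in the high PLIN1 libraries, against 50.4% of all tested features, and 8 (19.5%) had an unadjusted p under 0.05, all higher, against 3.44% of all. Without high drip replicate 2, the log2 fold among these 8 fell to 0.12 for RBP4, which is also in the liver list. It fell to 0.34 for PLIN5 and 0.47 for LIPE, and rose for CIDEC, FASN, PPARG, ACACA and SLC2A4. The median log2 fold of the 41 genes was 0.16. The lists were drawn up with PLIN1 results of these libraries known, and genes expressed in the same cells do not vary independently.

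Markers of fibroblasts and macrophages also lay mostly on the higher side. All 8 tested fibroblast markers had a log2 fold above 0 (median 0.27, 0 passed). That median was 0.43 in the libraries with liver transcripts, 0.14 in those without, and 0.15 with an age term. The summed level of fibroblast markers was 2810 to 4320 CPM (median 3448) in the high PLIN1 libraries and 2282 to 4107 CPM (median 2498) in the low PLIN1 libraries. COL3A1, a fibrillar collagen, averaged 2566 ± 514 CPM in the high PLIN1 libraries and 2087 ± 460 CPM in the low PLIN1 libraries (log2 fold 0.31 ± 0.17, edgeR unadjusted p = 0.0889). Its fold was 0.53 with and 0.09 without liver transcripts. PDGFRA, a receptor of fibroblasts and fat cell precursors that was picked after its values were seen, had a log2 fold of 0.39 ± 0.22. Among 26 tested matrix genes, 20 were higher and 6 lower, 0 passed, and the median was 0.19. The matrix median was 0.26 with and 0.07 without liver transcripts, and 0.09 with an age term. NID1, a basement membrane link protein picked after its values were seen, averaged 22.6 ± 2.35 CPM in the high PLIN1 libraries and 18.6 ± 4.19 CPM in the low PLIN1 libraries (log2 fold 0.33 ± 0.15, edgeR unadjusted p = 0.0456). The part of these cells in the fat gene values was not tested.

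Macrophage markers were higher for 7 and lower for 2 of 9 tested genes (median 0.27, 0 passed), with summed levels of 61.1 to 113 CPM (median 76.7) in the high PLIN1 libraries and 35.2 to 118 CPM (median 62.7) in the low PLIN1 libraries. C1QA, a complement subunit made by macrophages, averaged 34.1 ± 9.87 CPM in the high PLIN1 libraries and 23.1 ± 6.99 CPM in the low PLIN1 libraries (log2 fold 0.59 ± 0.23, edgeR unadjusted p = 0.0233). That was the highest fold of the list, and it was 0.37 without high drip replicate 2. CSF1R had a log2 fold of 0.34 ± 0.30 (edgeR unadjusted p = 0.267), and the lowest member of the list had -1.23. The median of the list was 0.04 without high drip replicate 2. Endothelial markers had a median of 0.11 over 9 genes, smooth muscle and pericyte markers 0.08 over 9, satellite cell markers 0.11 over 7, lymphocyte markers 0.16 over 5, Schwann cell markers -0.16 over 3 and erythroid markers -0.08 over 2. Preadipocyte markers had a median of 0.15 over 6 genes, 4 of them higher. In none of these lists did a member pass. Liver transcripts were higher for 13 of 13 tested genes with a median of 1.41, which was -0.41 without high drip replicate 2, and 0 passed.

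The lists of muscle fibre and energy genes had medians from -0.13 to 0.02, with the slow fibre and citrate cycle lists on the lower side. Those 2 medians were about as far from 0 as the 0.12 of the lipid droplet list. The citrate cycle had 1 of 12 tested members higher and 11 lower with a median of -0.10, and oxidative phosphorylation had 7 of 24 higher and 17 lower with a median of -0.02. Fatty acid oxidation had 5 of 16 higher (median -0.06), glycogen and glycolysis 7 of 18 (median -0.06), and cholesterol synthesis 4 of 12 (median -0.03). All 5 tested slow fibre genes were lower (median -0.13, lowest log2 fold -0.72). Among them TNNT1, the slow troponin T, had 2985 ± 376 CPM in the high PLIN1 libraries and 3452 ± 614 CPM in the low PLIN1 libraries (log2 fold -0.23 ± 0.14). The 8 tested fast fibre genes had a median of 0.02. Insulin signalling had a median of -0.02 and glucocorticoid response one of -0.07, and 0 members of any of these lists passed. GRB10, an adaptor that restrains the insulin receptor, had a log2 fold of 0.35 ± 0.15 (edgeR unadjusted p = 0.0335) with overlapping groups. Its median was 176 CPM in the high PLIN1 and 180 CPM in the low PLIN1 libraries, and high drip replicate 2 stood at 331 CPM. The fold was 0.23 without that library, 0.61 in females and 0.08 in males.

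The immediate early genes, which tissue switches on within minutes of a stimulus, had a median of -0.36, with 3 of 15 tested members higher, 12 lower and 0 passed. The median was -0.75 without low drip replicate 1 and 0.16 without low drip replicate 5. FOS ranged from 30.9 to 671 CPM (median 106) in the high PLIN1 libraries and from 81.1 to 819 CPM (median 249) in the low PLIN1 libraries. Its log2 fold of -0.74 ± 0.69 was -2.11 without low drip replicate 1 and 0.18 without low drip replicate 5, and the groups overlapped over most of their range. SLC16A3, the lactate exporter of glycolytic fibres, which was picked after its values were seen, averaged 51.5 ± 30.9 CPM in the high PLIN1 libraries and 33.3 ± 16.6 CPM in the low PLIN1 libraries (log2 fold 0.84 ± 0.36), with -0.24 in the libraries without liver transcripts.

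**Figure D4:**
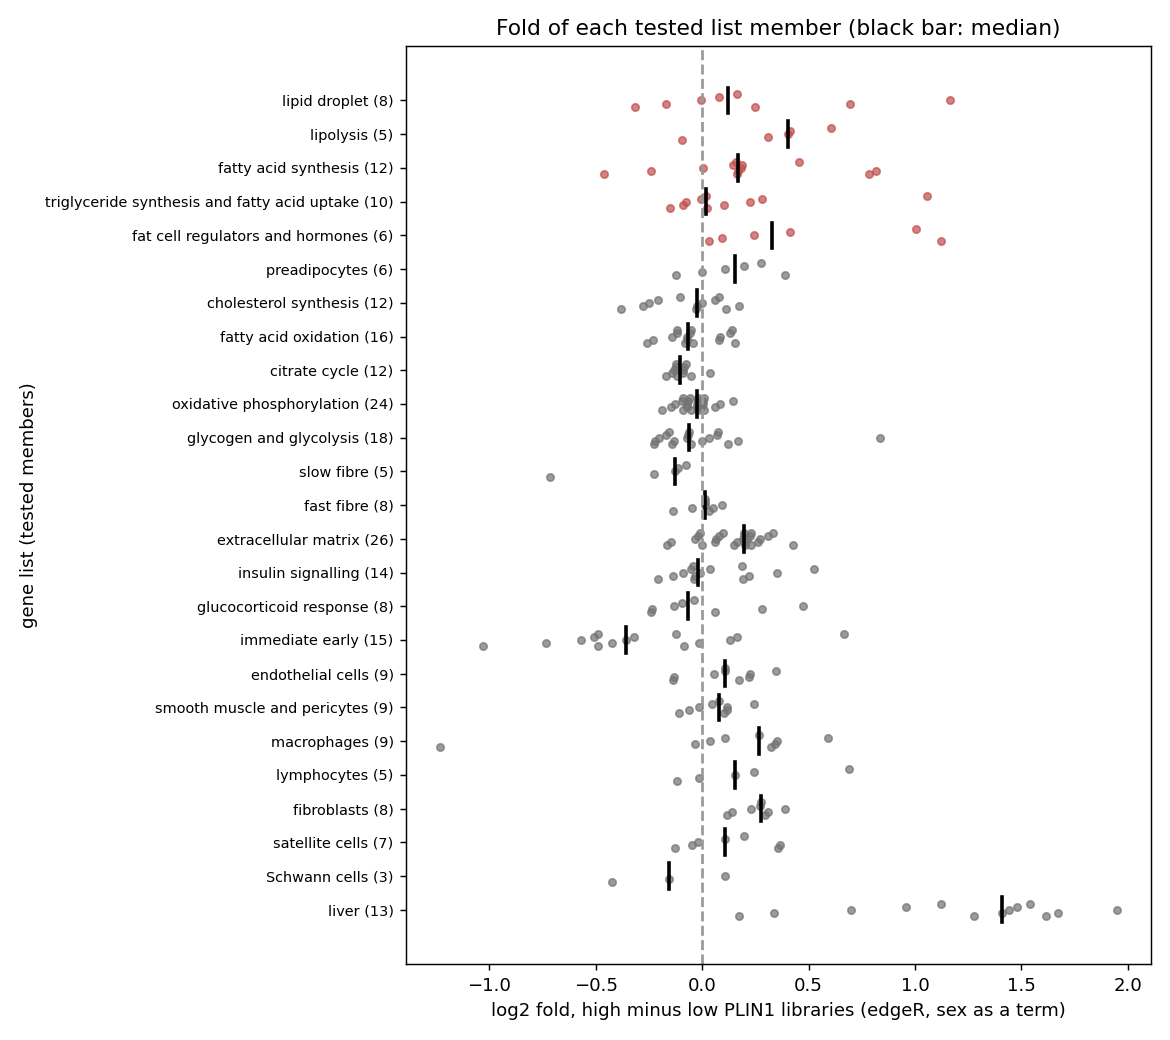
Log2 fold, high minus low PLIN1 libraries, of every tested member of the lists with at least 3 tested members (x axis), with 1 list per line (y axis), the 5 fat lists in red and the others in grey. Black bars are medians and the dashed line is 0; the lipolysis (0.40), fat regulator (0.33) and liver (1.41) lists had the highest medians in this fit and the immediate early genes the lowest (-0.36).

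The 10 named genes of smallest p on the higher side included CIDEC, PPARG and 8 genes outside the fat lists. ACAA1, a thiolase of peroxisomal fatty acid breakdown, was read at 24.5, 26.2 and 30.1 CPM (lowest, median and highest) in the high PLIN1 libraries and at 16.8, 20 and 25.1 CPM in the low PLIN1 libraries. Its log2 fold of 0.48 ± 0.11 had the smallest p of all features (edgeR unadjusted p = 0.000805, adjusted p = 1), and 4 high PLIN1 libraries lay above every low PLIN1 library. OSBPL10, a sterol-binding protein of the oxysterol-binding family, averaged 2.34 ± 0.201 CPM in the high PLIN1 libraries and 1.42 ± 0.336 CPM in the low PLIN1 libraries with no overlap, from 22 to 28 and 8 to 16 counts (log2 fold 0.71 ± 0.22, edgeR unadjusted p = 0.00611). APOE, the lipoprotein ligand made by liver, macrophages and fat, had 58.8 CPM in high drip replicate 2 and 5.53 to 19.7 CPM in the other high PLIN1 libraries, against 5.55 to 16.5 CPM in the low PLIN1 libraries. Its log2 fold of 1.49 ± 0.41 was 0.60 without that library and 0.16 in the libraries without liver transcripts. ITIH3, a plasma protein of the liver list, had groups that did not overlap, at 6.29 to 13.5 CPM in the high PLIN1 libraries and 5.09 to 6.27 CPM in the low PLIN1 libraries (log2 fold 0.70 ± 0.17), and its fold was 0.48 without high drip replicate 2.

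The remaining genes of smallest p on the higher side were GALNT16, ARL2BP, KCP and GATM. GALNT16, a glycosyltransferase, had a log2 fold of 0.61 ± 0.16, and ARL2BP one of 0.61 ± 0.18. GATM, an enzyme of creatine synthesis, had 0.73 ± 0.23, and KCP, a secreted modulator of BMP signalling, 1.04 ± 0.32. KCP rested on 10 to 49 counts in the high PLIN1 libraries and 7 to 18 in the low PLIN1 libraries. Its fold was 0.77 without high drip replicate 2, and 1.54 with and 0.36 without liver transcripts. AGTR1, the angiotensin II receptor, was picked after its values were seen because its groups did not overlap, as for 17 (0.168%) of all tested features. It averaged 22.7 ± 3.65 CPM in the high PLIN1 libraries and 16.1 ± 2.70 CPM in the low PLIN1 libraries (log2 fold 0.42 ± 0.14, edgeR unadjusted p = 0.00833), with 0.44 in females and 0.40 in males.

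Of the genes named on the lower side, ADAMTS8, a secreted metalloprotease, had the largest fold. It was read at 14.6, 16.9 and 38.1 CPM (lowest, median and highest) in the high PLIN1 libraries and at 20.4, 56.0 and 137 CPM in the low PLIN1 libraries. The 3 low PLIN1 libraries nearest the boundary, all low drip, stood at 77.4 to 137 CPM, above every high PLIN1 library. The log2 fold was -1.68 ± 0.46 (edgeR unadjusted p = 0.00276), and with PLIN1 as a number the slope was -0.43 ± 0.43. ARG2, the mitochondrial arginase, averaged 41.2 ± 9.66 CPM in the high PLIN1 libraries and 83.0 ± 41.2 CPM in the low PLIN1 libraries (log2 fold -1.0 ± 0.30, edgeR unadjusted p = 0.00441), and 4 low PLIN1 libraries lay above every high PLIN1 library.

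SIPA1L2, a regulator of Rap GTPases, had 14.6 ± 3.64 CPM in the high PLIN1 libraries and 22.9 ± 5.05 CPM in the low PLIN1 libraries (log2 fold -0.74 ± 0.18, edgeR unadjusted p = 0.00107). The groups of FAM210B, a mitochondrial membrane protein, did not overlap, with 18.5 to 27.1 CPM in the high PLIN1 libraries and 28.9 to 34.8 CPM in the low PLIN1 libraries (log2 fold -0.38 ± 0.12). Others named on this side were LRBA (-0.58 ± 0.15), GAREM1 (-0.69 ± 0.18), MAPRE2 (-0.64 ± 0.17), CPA1 (-0.98 ± 0.29) and NTN4 (-0.87 ± 0.28), all as log2 folds. NEB, the giant thin-filament protein nebulin of muscle fibres, was picked after its values were seen because its groups did not overlap. The same held for 17 (0.168%) of all tested features. It averaged 8186 ± 879 CPM in the high PLIN1 libraries and 9868 ± 715 CPM in the low PLIN1 libraries (log2 fold -0.26 ± 0.11, edgeR unadjusted p = 0.0294).

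**Figure D5:**
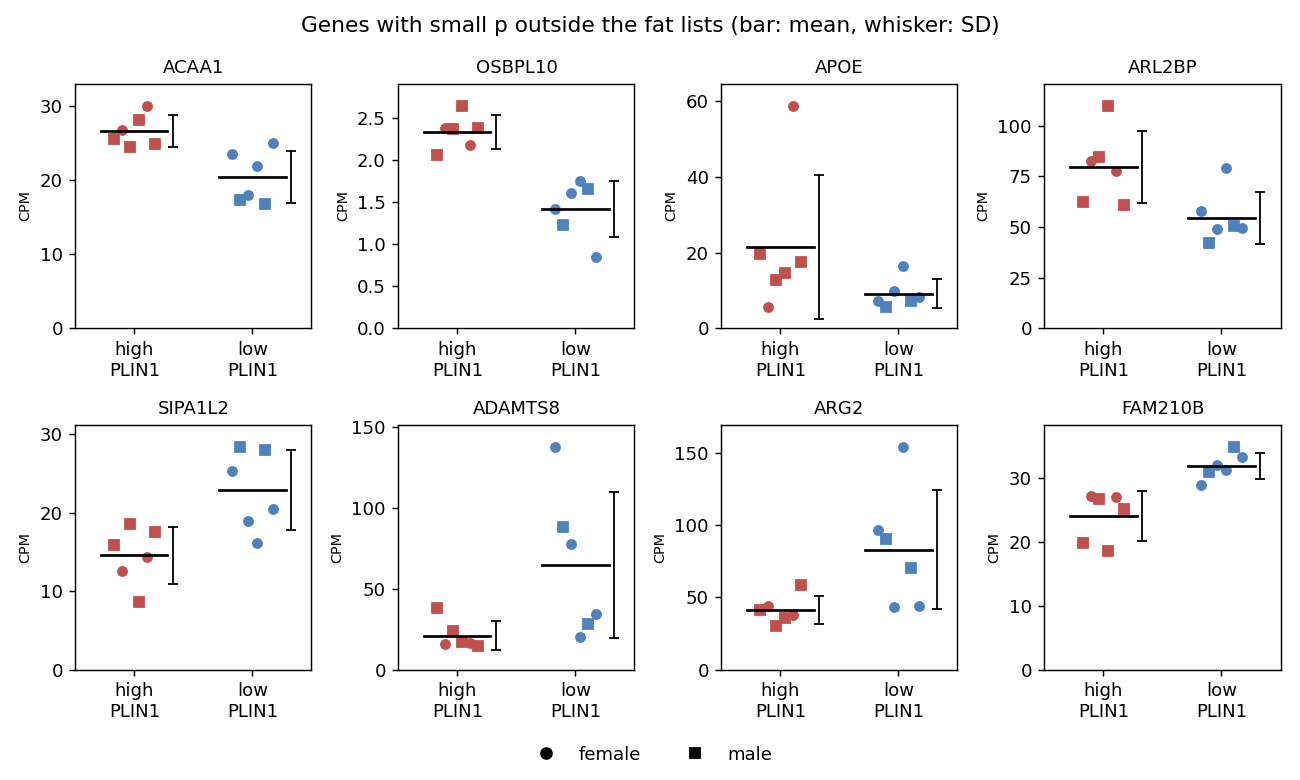
Level in CPM (y axis, one scale per gene) of 8 genes with small p outside the fat lists, in the high PLIN1 (left, red) and low PLIN1 (right, blue) libraries, with circles for females and squares for males. Bars are means and whiskers are SD (n = 6 each); OSBPL10 and FAM210B did not overlap, and the mean of APOE was raised by 1 library at 58.8 CPM.

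Within the sexes, 0 features passed among females, where 2 high PLIN1 and 4 low PLIN1 libraries were compared. Among males, with 4 high PLIN1 and 2 low PLIN1 libraries, 4 features passed, none of them in the fat lists. GPCPD1, a glycerophosphocholine phosphodiesterase, fell by 1.32 on the log2 scale (edgeR adjusted p = 0.0448), ZNF385D fell by 2.24 (edgeR adjusted p = 0.0292), PDZD9 fell by 2.36 (edgeR adjusted p = 0.0448), and the unnamed ENSSSCG00000026923 rose (edgeR adjusted p = 0.0292). ENSSSCG00000026923 had 36 to 41 counts in the 4 high PLIN1 males, against 1 and 0 counts in the low PLIN1 males, so its fold is not given. In females it had 22 and 0 counts in the high PLIN1 libraries, against 0, 1, 0 and 13 counts in the low PLIN1 libraries. These 4 were named after their values were seen, and whether they differ between the sexes was not tested.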

How the data were processed

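Muscle RNA of 12 pigs was sequenced from TruSeq version 2 libraries, per the labels. The deposited values are raw counts per feature, which the authors made with TopHat2 2.0.3, Bowtie 0.12.7.0 and HTSeq on build Sscrofa10.2, per the submitters' processing notes; the strand setting and annotation release are not given in the sources used here. Each whole-genome table held 20741 features, of which 10349 took a symbol from a table of gene IDs, and the last 5 summary lines were left out. Tables were assigned to animals by the number they carry. The labels give each library as a separate animal, whereas the series' design text speaks of triplicates without saying of what. P-values therefore measure only the spread between these 12 libraries. Replicate numbers follow accession order.

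Libraries were grouped by PLIN1 as stated above. The test was that of edgeR 4.0.16, run in R 4.3.3 (filterByExpr, TMM, quasi-likelihood F-test, sex as a term, two-sided), with Benjamini-Hochberg adjustment over all tested features and a threshold of 0.05. Folds are high minus low PLIN1, with the standard error of the fit. CPM of single tested genes uses TMM-scaled totals of the tested features, and PLIN1 and the albumin values in the account of the libraries use whole totals, so levels can be compared between libraries and not between genes. Intervals cover counting error only. DESeq2 1.42.0, limma-voom 3.58.1, RLE scaling, other filters, further terms, subsets of libraries, PLIN1 as a number and leaving out each library were alternatives. Simulated counts checked the edgeR step on 9985 genes, with 9 unchanged genes called.

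Named genes are, in each direction, the 10 symbols of lowest p, CIDEC, FASN, up to 6 most abundant tested members of each fat list, and up to 2 of each other list; any further gene is said to be picked after its values were seen. Not every gene that the rule took is described, and one is not reported here. The groups, gene lists and tests were chosen with earlier results of these data known. Lists were counted and not tested.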

Additional observations from a re-analysis of the deposited data

Results flagged for a closer look

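Of 116 groups of 6 libraries examined (58 genes, 2 groups each), 9 held a library farther from the rest than Dixon's 95% critical value allows, and chance flags about 1 in 20 such groups. In 4 of them the library was high drip replicate 2, the highest of the high PLIN1 group, with 58.8 CPM for APOE (next 19.7), 6.48 CPM for GATM (next 3.58), 9.21 CPM for RBP4 (next 3.31) and 312 CPM for ALB (next 39.9). Without this library the log2 folds were 0.60 for APOE, 0.50 for GATM, 0.12 for RBP4 and -1.39 for ALB. FOS stood at 671 CPM in low drip replicate 1, a high PLIN1 library, with the next at 231 CPM.

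In the low PLIN1 group, low drip replicate 2 was highest for the fibroblast genes FAP, at 26.2 CPM with the next at 17.0, and COL3A1, at 2966 CPM with the next at 2123. It was lowest for NDUFA4, a subunit of the respiratory chain, at 478 CPM with the next at 559. GAREM1 was highest in low drip replicate 5, at 24.1 CPM with the next at 13.2 CPM.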

How the results depend on the processing

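The count of 0 features past the threshold held under DESeq2, limma-voom, RLE scaling, a CPM filter, no filter, no sex term, terms for drip, age or liver transcripts, females only, libraries with or without liver transcripts, and without the 2 libraries nearest the boundary. It was 2 with PLIN1 as a number and 4 in males, and 0 to 1 when 1 library was left out, the 1 being HSMMG418, without low drip replicate 4. With PLIN1 as a number, further alternatives chosen after seeing the data gave 2 with a liver term, 3 without the sex term, 1 with a drip term (FASN), 0 with voom, 2 with RLE, 3 with no filter, and 0 to 3 when 1 library was left out. No filter gave 564 features at an unadjusted p under 0.05 and the libraries with liver transcripts 739; leaving out 1 library gave 244 to 486.

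List medians moved for lipid droplet genes (0.001 in males, 0.058 to 0.23 without 1 library), lipolysis (0.73 with and 0.10 without liver transcripts), triglyceride synthesis (0.19 with them) and fat cell regulators (0.59 with and 0.16 without them, 0.12 to 0.46 without 1 library). Over the alternatives, the median ran from -0.77 to 0.16 for immediate early genes, -0.32 to 0.70 for lymphocytes, -0.26 to 0.37 for Schwann cells, -0.088 to 0.43 for endothelial cells, -0.07 to 0.37 for satellite cells and -0.41 to 2.39 for the liver list. Of 57 genes, 48 kept their direction in 28 alternatives and 9 did not. Without liver transcripts the log2 fold was -0.14 for PNPLA2, -0.13 for MGLL, -0.15 for LPIN1, -0.21 for CFD, -0.066 for COL1A2 and -0.24 for SLC16A3. In males it was -0.26 for LPIN1, -0.012 for PECAM1 and -0.76 for ALB, which was -0.47 with an age term. Leaving out 1 library gave -0.019 to 0.43 for CFD, -2.11 to 0.18 for FOS and -1.39 to 3.22 for ALB. The cause was not tested.

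No paired analysis was possible because the replicate numbers follow accession order and the groups were made from PLIN1. Depth limits low genes: PPARG rests on 13 to 58 counts per library, and the middle libraries could not be ordered by PLIN1.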

Other observations

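HSMMG418, a feature of the water holding regions for which no gene name was found, had counts either near 0 or near 20 in every library. It had 2, 0, 3, 3 and 1 counts in 5 of the high PLIN1 libraries and 21 counts in the other one, low drip replicate 4, against 16 to 23 counts in all 6 low PLIN1 libraries. Of the alternatives run, it passed only without low drip replicate 4 (edgeR adjusted p = 0.00238), and it was singled out after its values were seen. ENSSSCG00000026923 was likewise either at 13 counts or more or at 0 or 1 count, with 5 of 6 high PLIN1 libraries and 1 of 6 low PLIN1 libraries in the higher class.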
